A study of Mus musculus with 6 samples.

Results

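Forkhead (Fox) and Sox genes encode the transcription factors that bind DNA through a forkhead domain or through a Sox-type HMG box. Members were the genes of the count table whose symbol was *Fox* or *Sox* with its class letter and number, and the cell-cycle regulator *Foxm1* was left out by that rule. Of 17092 genes in the table, 50 were members, 33 forkhead and 17 Sox genes. Their RNA was measured in mouse embryonic fibroblasts (MEFs), mesenchymal cells grown out of embryos, from WT mice and from mice with a global knockout of the nested gene *Aff3ir-ORF2* (*Aff3ir-ORF2*-/-). Each genotype had 3 RNA-seq libraries, and the labels give no treatment, age or sex for either. Nothing in the labels says whether the 3 libraries of a genotype came from separate embryos or cultures, so the p-values below measure the spread between these libraries, which may be technical. The nested transcript was not analysed here, so the genotype of a library was not checked against it.

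Forkhead factors take part in patterning the embryo, in forming mesenchyme, vessels and brain, and in the answer of cells to insulin and to starvation, the latter through the FoxO class, which phosphorylation by Akt keeps out of the nucleus. Sox factors bend DNA and act with partner proteins. They are grouped by sequence into classes with known parts in progenitor cells (SoxB1, SoxC), cartilage (SoxD, SoxE), neural crest (SoxE) and vessels (SoxF). Several members of both families are known to mark the mesenchyme of particular regions of the embryo.

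Total estimated counts were 17435133 to 17726034 in WT and 18209421 to 18252330 in *Aff3ir-ORF2*-/- libraries. The spread between libraries was wider in *Aff3ir-ORF2*-/-, with a biological coefficient of variation of 0.0996 against 0.0184 in WT, and of 0.0641 when *Aff3ir-ORF2*-/- replicate 2 was left out. The fibroblast markers summed to 30170 to 30320 CPM in WT and 26350 to 32860 in *Aff3ir-ORF2*-/- (CPM being TMM-normalised counts relative to the library total), and 14 of 14 were detected in both. Single markers differed in both directions: by the adjusted p defined below, 5 were higher and 3 lower. With the fold threshold 3 were called higher (21.4%, against 14.3% of all genes) and 0 lower. Macrophage markers differed between the genotypes: 17 of 17 were called higher in *Aff3ir-ORF2*-/-, against 14.3% of all tested genes. They summed to 1335 to 2276 CPM there against 22.9 to 26.3 in WT, and *C1qa* and *C1qb* were at 0 counts in every WT library. *C1qa*, *C1qb* and others of the list entered the test described below through their *Aff3ir-ORF2*-/- libraries alone, so they had to differ. The part of macrophages in the differences below was not tested. In bulk RNA, fewer cells of a type and less RNA per cell cannot be told apart.

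Differences were tested with edgeR's quasi-likelihood test across 13075 genes, and "adjusted p" below is its Benjamini-Hochberg value. A gene was called higher or lower in *Aff3ir-ORF2*-/- where the adjusted p was under 0.05 and the fold change at least 1.5. Log2 fold changes are *Aff3ir-ORF2*-/- over WT, with their standard error (SE). Of all tested genes, 14.3% were called higher and 7.32% lower, and 56.9% had an adjusted p under 0.05. The filter on low counts kept 31 members, 21 forkhead and 10 Sox genes. It left 19 out, of which 10 had 3 counts or fewer in every library of both genotypes.

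The sequence before the start site is shown for 4 members that differed between the genotypes: *Sox4* and *Sox11*, which are close relatives and were both lower, and *Foxd1* and *Sox5*, which were higher. Each line gives the 250 bases before the start on the gene's own strand, 5′ to 3′, from RefSeq (GRCm38.p6), whose table held an entry for 32 of the 50 members. The windows are chr13:28953700-28953949 (minus strand) for *Sox4*, chr12:27342719-27342968 (minus) for *Sox11*, chr13:98353995-98354244 (plus) for *Foxd1* and chr6:143947107-143947356 (minus) for *Sox5*. Capitals mark the CCAAT box, read as CCAAT or, from the other strand, as ATTGG.
Sox4: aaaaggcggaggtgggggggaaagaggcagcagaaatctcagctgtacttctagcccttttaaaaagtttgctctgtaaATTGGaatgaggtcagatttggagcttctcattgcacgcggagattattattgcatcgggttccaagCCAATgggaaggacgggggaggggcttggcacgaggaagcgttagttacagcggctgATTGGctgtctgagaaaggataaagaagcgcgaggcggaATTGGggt
Sox11: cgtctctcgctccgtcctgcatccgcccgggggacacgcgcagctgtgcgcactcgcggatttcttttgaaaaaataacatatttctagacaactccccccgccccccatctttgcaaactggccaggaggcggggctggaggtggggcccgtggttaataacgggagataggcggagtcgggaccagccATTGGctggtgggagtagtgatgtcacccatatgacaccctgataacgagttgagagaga
Foxd1: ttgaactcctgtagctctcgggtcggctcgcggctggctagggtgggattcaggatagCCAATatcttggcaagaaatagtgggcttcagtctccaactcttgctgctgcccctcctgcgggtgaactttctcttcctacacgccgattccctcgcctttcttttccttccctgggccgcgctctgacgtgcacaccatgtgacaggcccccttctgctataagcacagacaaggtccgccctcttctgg
Sox5: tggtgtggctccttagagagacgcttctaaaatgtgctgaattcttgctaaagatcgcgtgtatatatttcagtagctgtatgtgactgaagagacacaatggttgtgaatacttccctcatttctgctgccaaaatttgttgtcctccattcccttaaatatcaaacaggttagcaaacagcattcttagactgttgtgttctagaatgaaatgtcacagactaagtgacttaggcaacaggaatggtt
The *Sox4* window held 4 CCAAT boxes, those of *Sox11* and *Foxd1* held 1 each and that of *Sox5* held 0. Among all 32851 promoters of the table, 33.8% held this motif on either strand, and the 250-base windows of forkhead and Sox members held it in 11 of 25 and 8 of 17 cases, some genes having several start sites. The forkhead core TGTTTAC, searched on both strands, was found in 3.17% of all promoters, in 1 of 25 forkhead windows (*Foxa1*) and in 1 of 17 Sox windows (*Sox12*). The Sox core AACAAT was found in 9.42% of all promoters, in 1 forkhead window (*Foxp1*) and 1 Sox window (*Sox6*). None of these motifs contains another, and a match is a description of the letters only.

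Forkhead genes that differed were mostly higher without *Aff3ir-ORF2*. Of the 21 tested, 10 were called higher, 47.6% against the 14.3% of all genes. By edgeR 0 were called lower, also at an unadjusted p under 0.05 with the same fold change, and DESeq2 called 0 lower as well. Without the fold threshold, 12 were higher and 2 lower by adjusted p. The median log2 fold change of the 21 was 0.36, and that of all tested genes was 0.0056. For 15 of the 21 forkhead genes (71.4%) every library of one genotype lay above every library of the other, which held for 66.0% of all genes. The called genes were mostly weakly expressed. Divided at a mean of 20 CPM, a value chosen after the levels had been seen, 9 of 12 weaker forkhead genes were called higher, against 25.1% of all weaker genes. Among the stronger ones 1 of 9, *Foxo3*, was called higher, against 5.75% of all stronger genes. The summed level of the 33 forkhead genes was 631, 641 and 659 CPM in the WT libraries and 713, 693 and 714 CPM in the *Aff3ir-ORF2*-/- libraries. Without *Aff3ir-ORF2*-/- replicate 2, edgeR called 11 forkhead genes higher, the added one being the rare *Foxa1*, which the filter left out of the main fit.

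**Figure D1:**
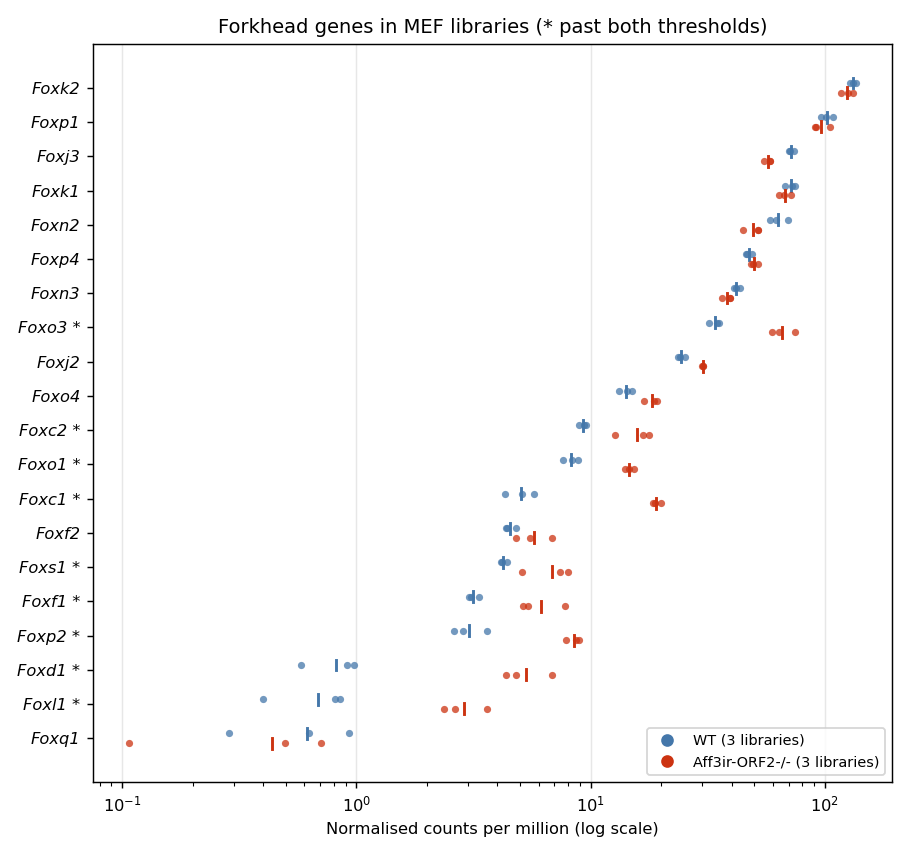
Normalised counts (x axis, CPM, log scale) of 20 forkhead genes in each library, ordered by their mean, with WT in blue and *Aff3ir-ORF2*-/- in red, a vertical tick at each genotype's mean and an asterisk at the genes past both thresholds. The strongly expressed genes at the top overlap or lie close, and the 9 marked genes lie apart, *Foxd1* and *Foxl1* among the widest.

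*Foxd1* (gene ID 15229), a mark of the precursors of kidney stroma, had 10, 16 and 17 counts in WT against 87, 81 and 125 in *Aff3ir-ORF2*-/-. The genotypes did not overlap, and the level was 6.42-fold higher in *Aff3ir-ORF2*-/- (log2 fold change 2.68, SE 0.27, adjusted p = 5.81e-05). The other FoxD genes were too rare to be tested. *Foxd2* had 3 to 6 counts in WT and 10 to 11 in *Aff3ir-ORF2*-/-, and the neural crest factor *Foxd3* had 3 to 8 and 9 to 13. Fitted without the filter on low counts, neither passed the test (adjusted p = 0.0692 and 0.149).

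Of the forkhead genes of mesenchyme and vessel wall, *Foxc1*, *Foxc2*, *Foxf1*, *Foxl1* and *Foxs1* rose and *Foxf2* did not pass. *Foxc1* (17300), needed for eye, skull and vessel development, had 74, 101 and 89 counts in WT against 336, 351 and 365 in *Aff3ir-ORF2*-/-. The groups were far apart and each was tight: 5.04 ± 0.728 CPM in WT and 19.1 ± 0.745 CPM in *Aff3ir-ORF2*-/- (SD, n = 3), 3.77-fold higher (log2 fold change 1.92, SE 0.11, adjusted p = 3.72e-06). Its relative *Foxc2* (14234), which shapes lymphatic valves and the axial skeleton, had 162, 156 and 167 counts in WT against 305, 236 and 326 in *Aff3ir-ORF2*-/-. It too did not overlap, with a smaller difference (log2 fold change 0.76, SE 0.13, adjusted p = 0.00115).

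*Foxf1* (15227) and *Foxl1* (14241) are known as Hedgehog-dependent factors of gut and lung mesenchyme. *Foxf1* had 52, 54 and 58 counts in WT against 98, 96 and 143 in *Aff3ir-ORF2*-/- (log2 fold change 0.96, SE 0.19, adjusted p = 0.00241). *Foxl1* had 14, 15 and 7 counts against 48, 44 and 66 (log2 fold change 2.05, SE 0.30, adjusted p = 5.22e-04). Both were separated, with the third *Aff3ir-ORF2*-/- library the highest in each. *Foxf2* (14238), which acts beside *Foxf1* in mesenchyme and in the pericytes of brain vessels, had 76 to 83 counts in WT and 89 to 125 in *Aff3ir-ORF2*-/-. It did not pass (log2 fold change 0.34, SE 0.16, adjusted p = 0.0968). *Foxs1* (14239), a gene of pericytes and of sensory neurons, had 72, 77 and 72 counts in WT against 146, 95 and 136 in *Aff3ir-ORF2*-/- (log2 fold change 0.69, SE 0.18, adjusted p = 0.0096). Its second *Aff3ir-ORF2*-/- library was the nearest to WT. Without *Aff3ir-ORF2*-/- replicate 1 the log2 fold change was 0.56, under the fold threshold.

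Some of these genes are neighbours. In the RefSeq order of genes on chromosome 8, *Foxf1*, *Foxc2* and *Foxl1* follow each other with 1 other protein-coding gene, between the first 2, and all 3 were higher. On chromosome 13, *Foxq1*, *Foxf2* and *Foxc1* follow each other with 0 between them, and there *Foxc1* was higher while the other two did not pass. *Foxq1* (15220) was rare, with 16, 11 and 5 counts in WT against 9, 2 and 13 in *Aff3ir-ORF2*-/-, which overlap (log2 fold change -0.49, SE 0.60, adjusted p = 0.512). In GENCODE M21, the model Gm20388 overlaps *Foxf1*, *Foxc2* and *Foxl1* on the same strand. It is not in the count table, and how the counting treated reads of overlapping models is not given in the sources used here.

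Of 18 listed genes of the Hedgehog pathway, 13 were tested, 3 were higher (23.1%, against 14.3% of all genes) and 2 lower (15.4%, against 7.32%), and their median log2 fold change was 0.02 (0.0056 for all genes). Among those higher were *Ptch1*, the receptor and itself a response gene (log2 fold change 0.73, adjusted p = 1.10e-04) and *Hhip*, a ligand-binding inhibitor (0.62, adjusted p = 0.00423). Lower were *Gli3*, a transcription factor of the pathway that often represses (-0.74, adjusted p = 3.82e-05), and the coreceptor *Cdon* (-0.59, adjusted p = 0.0249). *Gli1*, the usual readout of an active pathway, had 0 to 3 counts in each library, and the ligand *Shh* had 0 to 4.

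**Figure D2:**
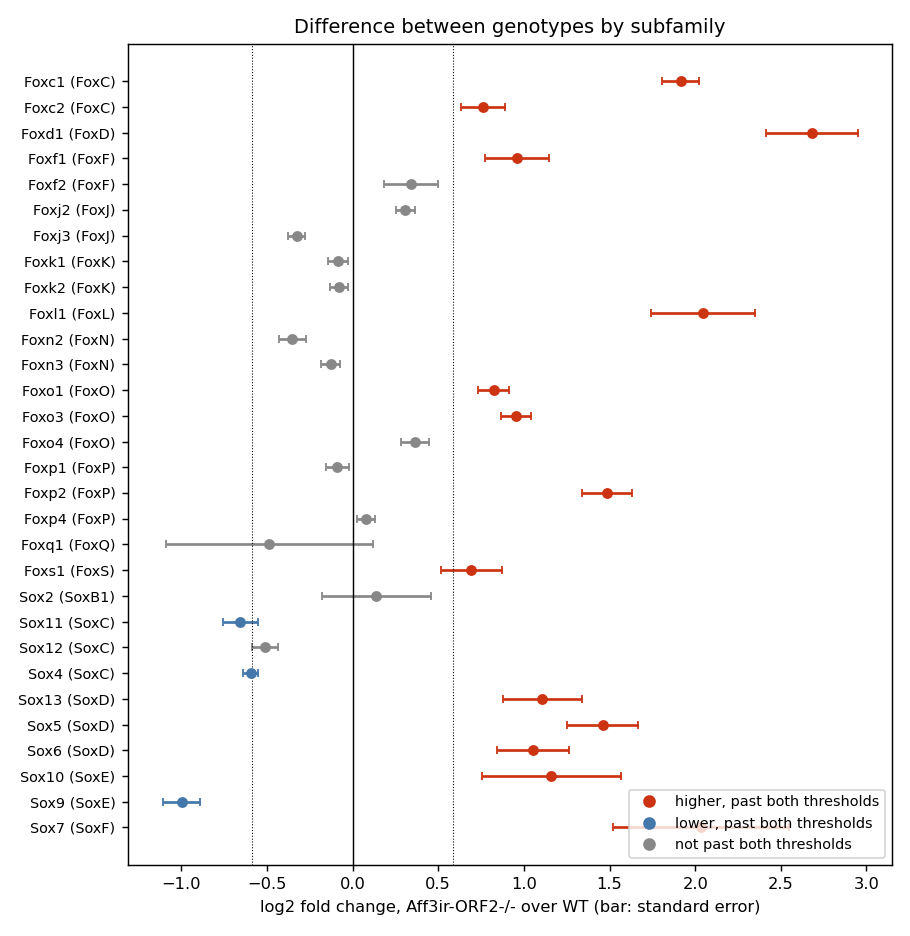
Log2 fold change (x axis, *Aff3ir-ORF2*-/- over WT, bars: standard error) of 30 tested members with the class of each in brackets, coloured by call, and dotted lines at a 1.5-fold change in each direction. Forkhead calls all lie to the right, while *Sox4*, *Sox11* and *Sox9* lie to the left and the SoxD genes to the right.

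The FoxO factors, which carry the response to low insulin and low growth factor, were higher to different degrees. *Foxo3* (56484) had 554, 618 and 605 counts in WT against 1080, 1388 and 1170 in *Aff3ir-ORF2*-/-. The lowest *Aff3ir-ORF2*-/- library was well above the highest WT library, at 34.0 ± 1.62 CPM in WT and 65.9 ± 7.81 CPM in *Aff3ir-ORF2*-/- (SD, n = 3; log2 fold change 0.95, SE 0.09, adjusted p = 3.44e-05). *Foxo1* (56458) had 152, 147 and 133 counts in WT against 279, 272 and 257 in *Aff3ir-ORF2*-/- (log2 fold change 0.82, SE 0.09, adjusted p = 9.86e-05). *Foxo4* (54601) had 258, 250 and 231 counts against 338, 357 and 310, and passed by adjusted p without reaching a 1.5-fold change (log2 fold change 0.37, SE 0.08, adjusted p = 0.00487). The groups of all 3 genes did not overlap. *Foxo6*, mostly of the brain, had 1 to 4 counts in a library.

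Genes that act on FoxO proteins were listed, 20 in all, and all were tested. Of these 2 were higher and 3 lower (14.3% and 7.32% of all genes were), with a median log2 fold change of -0.02. *Pik3r1*, the regulatory subunit of PI3-kinase, had 590, 634 and 680 counts in WT against 1218, 1629 and 1389 in *Aff3ir-ORF2*-/- (log2 fold change 1.07, SE 0.10, adjusted p = 3.41e-05), and the insulin receptor substrate *Irs1* rose by 0.59 on the log2 scale (adjusted p = 2.56e-04). Lower was *Sgk1*, a kinase that phosphorylates FoxO3 as Akt does, with 7747, 7846 and 7823 counts in WT against 3099, 2401 and 4187 in *Aff3ir-ORF2*-/- (log2 fold change -1.35, SE 0.17, adjusted p = 1.80e-04). *Irs2*, itself a FoxO target, and the deacetylase *Sirt1* were lower too (log2 fold changes -0.63 and -0.60, adjusted p = 7.96e-05 and 1.54e-04). The kinases *Akt1* and *Akt2* had log2 fold changes of 0.07 and -0.09.

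Of 24 listed target genes of FoxO factors, 23 were tested, 9 were higher (39.1%, against 14.3% of all genes) and 2 lower (8.7%, near the 7.32% of all genes), with a median log2 fold change of 0.41. *Txnip*, an inhibitor of thioredoxin and of glucose uptake, had 651, 672 and 654 counts in WT against 2013, 2045 and 2389 in *Aff3ir-ORF2*-/-, with no overlap (log2 fold change 1.63, SE 0.07, adjusted p = 1.82e-06). *Ddit4*, an inhibitor of mTORC1, *Ccng2*, a cyclin of arrested cells, and *Gabarapl1*, of autophagosomes, were also higher, by 1.37, 1.22 and 0.70 on the log2 scale. The kinase-like *Trib1* and the factor *Klf2* were lower (log2 fold changes -1.17 and -0.65). Many of these genes answer to other signals as well. The atrophy gene *Fbxo32* and the death gene *Bcl2l11*, both well-known FoxO targets, did not pass (log2 fold changes -0.04 and -0.13). RNA levels of FoxO genes do not measure how much FoxO protein is in the nucleus.

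The forkhead genes with the most counts differed little, apart from *Foxo3*. *Foxk2* (68837) and *Foxk1* (17425), which can bind sites of FoxO factors, were counted 2267, 2246 and 2374 times and 1285, 1193 and 1261 times in WT. In *Aff3ir-ORF2*-/- they had 2390, 2188 and 2309 and 1213, 1333 and 1174 counts. Neither passed the test (log2 fold changes -0.08 and -0.09, adjusted p = 0.231 and 0.234).

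The FoxP class comprises repressors that pair with each other through a leucine zipper. *Foxp1* (108655), broadly expressed, had 1666, 1779 and 1890 counts in WT against 1659, 1711 and 1921 in *Aff3ir-ORF2*-/- (log2 fold change -0.09, adjusted p = 0.278). *Foxp4* (74123) had 802, 861 and 807 counts against 943, 920 and 888 (0.08, adjusted p = 0.229). The rarer *Foxp2* (114142), known for its part in brain and lung development, differed: 49, 46 and 63 counts in WT stood against 143, 161 and 163 in *Aff3ir-ORF2*-/-, with no overlap (log2 fold change 1.48, SE 0.15, adjusted p = 5.5e-05). *Foxp3*, which defines regulatory T cells, had 0 or 1 count in each library. Of the T cell markers listed with it, the single one tested, *Ikzf2*, did not pass (log2 fold change -0.17, adjusted p = 0.200).

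Of the FoxJ and FoxN genes of many tissues, *Foxj2*, *Foxj3* and *Foxn2* passed by adjusted p with small changes and *Foxn3* did not pass. *Foxj2* (60611) had 406, 424 and 440 counts in WT against 548, 556 and 555 in *Aff3ir-ORF2*-/- (log2 fold change 0.31, SE 0.06, adjusted p = 0.00167). *Foxj3* (230700) went the other way, with 1215, 1300 and 1236 counts against 1061, 1091 and 1006 (-0.33, SE 0.05, adjusted p = 5.36e-04). *Foxn2* (14236) had 1008, 1087 and 1210 counts in WT against 942, 835 and 953 in *Aff3ir-ORF2*-/- (-0.35, SE 0.08, adjusted p = 0.00521). None of these reached a 1.5-fold change. *Foxn3* (71375), a checkpoint repressor, had 702, 765 and 726 against 719, 731 and 666 counts and did not pass (-0.13, adjusted p = 0.0832). *Foxj1*, the master factor of motile cilia, had 5 to 8 counts in WT and 1 to 4 in *Aff3ir-ORF2*-/- and was not tested. Of 18 motile cilium genes listed beside it, 6 were tested, and the lowest adjusted p was 0.0501, that of *Rfx2* (log2 fold change -0.75).

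The 12 untested forkhead genes were rare, and 4 of them had 3 counts or fewer in every library of both genotypes. *Foxa1*, a pioneer factor of endoderm, had 0, 2 and 3 counts in WT against 12, 10 and 31 in *Aff3ir-ORF2*-/-, at least 5.59-fold higher when WT is set at 3 counts per library. In the fit without the filter it passed (adjusted p = 0.00628). *Foxa2*, *Foxa3* and *Foxb2* had 0 or 1 count in every library. *Foxh1* and *Foxl2* had 0 to 4 and 0 to 5 counts, and *Foxn1*, the factor of thymus and hair follicle epithelium, had 1 to 8. Epithelial markers were low in both genotypes, at 4.29 to 5.04 CPM summed over 10 genes in WT and 4.08 to 5.49 CPM in *Aff3ir-ORF2*-/-.

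Sox genes moved in both directions, with the SoxC genes and *Sox9* lower and the SoxD genes, *Sox10* and *Sox7* higher. Of the 10 tested, 5 were called higher (50.0%, against 14.3% of all genes) and 3 lower, with a median log2 fold change of 0.60. All 5 were among the 8 tested Sox genes with a mean under 20 CPM, where 25.1% of all genes were called higher. One of the 5, *Sox7*, was kept by the filter on low counts through its *Aff3ir-ORF2*-/- libraries alone, so it had to differ. The share called lower was 30.0%, against 7.32% of all genes. By adjusted p alone 9 of 10 passed, where 56.9% of all genes did, and 9 of 10 did not overlap between genotypes, where 66.0% of all genes did. The summed level of the 17 Sox genes was 261, 253 and 247 CPM in WT and 171, 176 and 178 CPM in *Aff3ir-ORF2*-/- libraries, and most of it was *Sox4*. Without *Aff3ir-ORF2*-/- replicate 2, edgeR again called 5 higher and 3 lower.

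**Figure D3:**
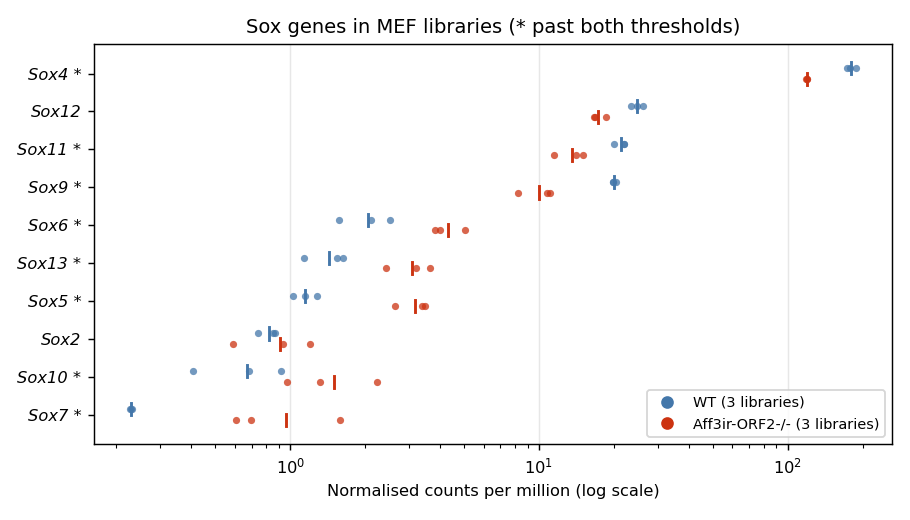
Normalised counts (x axis, CPM, log scale) of the 10 tested Sox genes in each library, with WT in blue, *Aff3ir-ORF2*-/- in red, a vertical tick at each genotype's mean and an asterisk at genes past both thresholds. The 4 most abundant genes sit lower in *Aff3ir-ORF2*-/-, and 5 of the 6 rarer ones sit higher, *Sox2* being the one whose genotypes overlap.

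The SoxC genes, activators of progenitor and mesenchymal programmes, were all lower by adjusted p, and 2 of 3 passed the fold threshold too. *Sox4* (20677) had 3251, 3140 and 3037 counts in WT against 2174, 2233 and 2184 in *Aff3ir-ORF2*-/-. Its level was 180 ± 7.51 CPM in WT and 119 ± 0.418 CPM in *Aff3ir-ORF2*-/- (SD, n = 3), with no overlap and 1.51-fold lower (log2 fold change -0.59, SE 0.04, adjusted p = 1.36e-05). This lies next to the fold threshold, and it fell short of it with upper quartile scaling (-0.56), with scaling by total counts (-0.57), with at least 10 counts asked of every library (-0.58) and without WT replicate 1 (-0.56), all with an adjusted p of 2.45e-04 or less. *Sox11* (20666), of neurons, heart and limb mesenchyme, had 345, 385 and 385 counts in WT against 210, 262 and 275 in *Aff3ir-ORF2*-/- (-0.66, SE 0.10, adjusted p = 6.48e-04). Without *Aff3ir-ORF2*-/- replicate 1, its lowest library, the log2 fold change was -0.56. *Sox12* (20667) had 451, 437 and 408 counts against 302, 348 and 308, a smaller change that passed by adjusted p alone (-0.51, SE 0.08, adjusted p = 5.0e-04). All 3 class members were separated between genotypes in the same direction, and the windows printed for *Sox4* and *Sox11* hold 4 and 1 CCAAT boxes.

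The SoxD class rose. SoxD proteins have no activation domain of their own and work as partners, *Sox5* and *Sox6* with *Sox9* in cartilage. *Sox5* (20678) had 22, 18 and 20 counts in WT against 48, 65 and 62 in *Aff3ir-ORF2*-/- (log2 fold change 1.46, SE 0.21, adjusted p = 3.92e-04). *Sox6* (20679) had 27, 37 and 44 against 73, 94 and 70 (1.05, SE 0.21, adjusted p = 0.00258). *Sox13* (20668) had 28, 20 and 27 against 44, 68 and 59 (1.11, SE 0.23, adjusted p = 0.00336). All 3 were separated between the genotypes and stood at 1.15 to 2.06 CPM in WT and 3.09 to 4.29 CPM in *Aff3ir-ORF2*-/-. In GENCODE M21, antisense genes overlap *Sox5* (*Sox5os1* to *Sox5os5*) and *Sox6* (*Sox6os*). Whether the counting used strand is not given in the sources used here, so reads from either strand cannot be told apart.

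The SoxE class was divided. *Sox9* (20682), which starts cartilage formation and marks many progenitor cells, had 343, 359 and 346 counts in WT against 196, 153 and 204 in *Aff3ir-ORF2*-/-. Its level was 20.04 ± 0.333 CPM in WT and 10.03 ± 1.58 CPM in *Aff3ir-ORF2*-/- (SD, n = 3), with every *Aff3ir-ORF2*-/- library well below every WT library (log2 fold change -0.999, SE 0.11, adjusted p = 9.86e-05). It was called lower in all 14 alternative fits. *Sox10* (20665), of neural crest and glia, had 7, 12 and 16 counts in WT against 24, 18 and 41 in *Aff3ir-ORF2*-/- (1.16, SE 0.41, adjusted p = 0.0359). The call was lost with DESeq2 (adjusted p = 0.055) and without WT replicate 1 (0.125), WT replicate 2 (0.0902), *Aff3ir-ORF2*-/- replicate 1 (0.0536) or replicate 3 (0.122), and over 13 alternatives the adjusted p ran from 0.00684 to 0.125. *Sox8* had 0 to 2 counts in each library.

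Cartilage genes known to be bound by Sox9 with Sox5 and Sox6 were set beside these values. Of 18 listed, 9 were tested, 4 were higher (44.4%) and 1 lower (11.1%), with a median log2 fold change of 0.77. Of all genes, 14.3% were called higher and 7.32% lower, and of those under 20 CPM, where the 9 lie apart from *Col11a1*, 25.1% were called higher. *Col11a1*, a fibrillar collagen that fibroblasts also make, had 941, 925 and 950 counts in WT against 3576, 5036 and 3679 in *Aff3ir-ORF2*-/- (log2 fold change 2.05, SE 0.12, adjusted p = 3.83e-06), and made up most of the list's level. *Col2a1*, the main collagen of cartilage, had 43, 44 and 47 counts against 181, 177 and 360 (2.34, SE 0.31, adjusted p = 2.66e-04), and *Comp* and *Col11a2* were higher by 2.86 and 0.83 on the log2 scale. *Comp* had 10, 9 and 6 counts in WT against 70, 68 and 56 in *Aff3ir-ORF2*-/-. Every library of it reached the level the filter on low counts asks for only in *Aff3ir-ORF2*-/-, so it was tested through that genotype. *Acan*, the large proteoglycan of cartilage, was lower, with 28, 36 and 39 counts against 6, 21 and 22 (-1.14, SE 0.38, adjusted p = 0.0282).

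Of 16 listed neural crest and Schwann cell genes, 11 were tested, 7 were higher (63.6%) and 1 lower (9.09%), with a median log2 fold change of 0.78. All 11 had a mean under 20 CPM, where 25.1% of all genes were called higher, and 7.32% of all genes were called lower. *Pax3*, a neural crest and muscle factor, had 1, 4 and 5 counts in WT against 29, 44 and 24 in *Aff3ir-ORF2*-/- (log2 fold change 3.15, SE 0.46, adjusted p = 4.47e-04). Like *Sox7*, *Pax3* was kept by the filter on low counts through its *Aff3ir-ORF2*-/- libraries alone, so it had to differ. *S100b*, also higher, had 6, 13 and 8 counts in WT against 39, 25 and 12. Every library of it reached the level the filter asks for only in *Aff3ir-ORF2*-/-. The share called higher rests partly on these genes. *Fabp7*, a lipid-binding protein of glial precursors, had 10, 14 and 19 counts against 47, 47 and 61 (1.76, adjusted p = 5.07e-04). The endothelin receptor *Ednrb* was lower (-0.66, adjusted p = 0.0233). The list summed to 32.8 to 35.9 CPM in WT and 37.9 to 54.1 CPM in *Aff3ir-ORF2*-/-. *Dct*, a defining gene of melanocytes, was at 0 to 1 counts in a library.

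The SoxF class, of endothelium, was at the edge of detection. *Sox7* (20680) had 4 counts in each WT library and 11, 13 and 29 in *Aff3ir-ORF2*-/- (log2 fold change 2.03, SE 0.51, adjusted p = 0.00876), and no WT library reached the level the filter asks for. *Sox17* and *Sox18*, which act with it in vessels, had 0 to 2 counts in each library. Of 14 listed endothelial markers, 8 were tested, 3 were higher and 3 lower (37.5% each, against 14.3% and 7.32% of all genes), with a median log2 fold change of -0.57. The VEGF receptor *Flt1* had 2832, 2880 and 2992 counts in WT against 1678, 2103 and 1389 in *Aff3ir-ORF2*-/- (-0.83, SE 0.12, adjusted p = 4.14e-04), and the lymphatic receptor *Flt4* was lower by 0.76 on the log2 scale. The factor *Erg* had 5, 3 and 7 counts against 21, 45 and 26 (2.51, SE 0.44, adjusted p = 0.00125), and *Vwf*, stored in endothelial granules, was higher by 2.24. Like *Sox7*, *Erg* was kept by the filter through its *Aff3ir-ORF2*-/- libraries alone, so it had to differ. *Pecam1*, a defining surface protein of endothelium, had 2 to 5 counts in each library of both genotypes. The summed level was 244 to 251 CPM in WT and 143 to 165 CPM in *Aff3ir-ORF2*-/-, most of it from *Flt1* and *Flt4*.

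Of the SoxB1 class, *Sox2* (20674), a factor of stem and neural progenitor cells, had 15, 15 and 13 counts in WT against 17, 11 and 22 in *Aff3ir-ORF2*-/-. The groups overlapped, and the difference did not pass (log2 fold change 0.14, SE 0.32, adjusted p = 0.727). *Sox2* lies within the noncoding gene *Sox2ot*, so reads of the 2 genes may not be told apart. *Sox1*, *Sox15* and *Sox21* had 0 to 3 counts in a library and *Sox30*, of the testis, had 3 to 9.

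Brain markers gave 1 call in each direction, 25.0% each of those tested, against 14.3% higher and 7.32% lower among all genes. Of 12 listed genes of neural progenitors and neurons, 4 were tested: *Nes*, an intermediate filament that fibroblasts also make, was higher (log2 fold change 0.66, adjusted p = 7.95e-04), and *Tubb3*, a neuronal tubulin, was lower (-1.001, adjusted p = 2.41e-04). *Stmn2* and *Msi1* did not pass (log2 fold changes -0.80 and 0.0042). Another 7 of the list had 3 counts or fewer in every library of both genotypes.

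**Figure D4:**
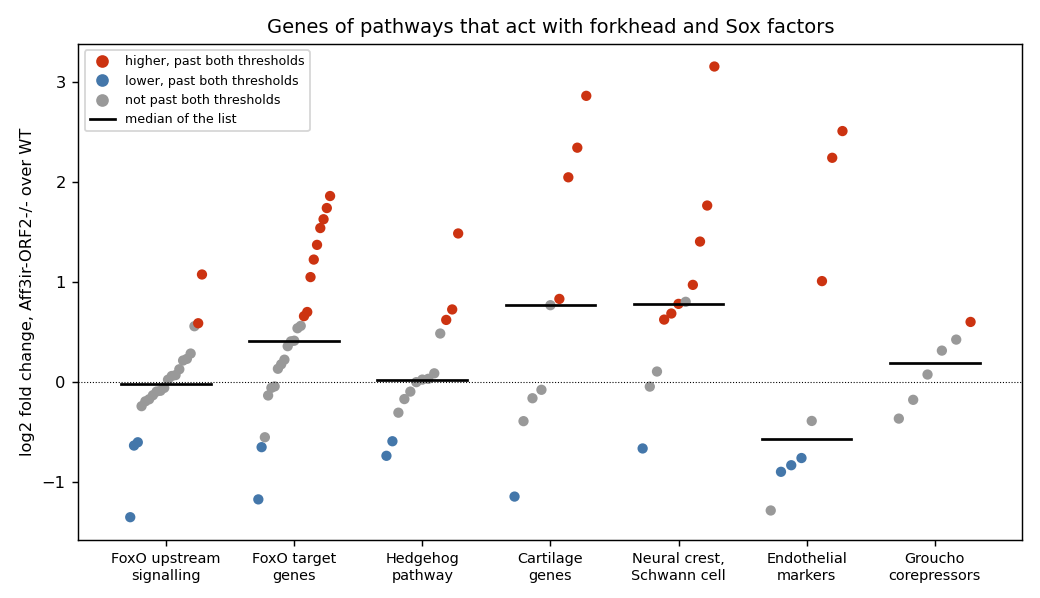
Log2 fold change (y axis, *Aff3ir-ORF2*-/- over WT) of each tested gene of 7 lists of genes that act with forkhead or Sox factors, coloured by call, with a line at each list's median. FoxO target genes, cartilage genes and neural crest genes have medians of 0.41, 0.77 and 0.78, while the lists of FoxO upstream signalling and of the Hedgehog pathway centre on -0.02 and 0.02.

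Groucho corepressors, through which several forkhead and SoxB factors repress, were at 287 to 298 CPM in WT and 335 to 343 CPM in *Aff3ir-ORF2*-/- when summed. Of 7 listed, 6 were tested and 1, *Tle1*, was higher (log2 fold change 0.60, adjusted p = 8.94e-05). That is 16.7%, near the 14.3% of all genes. *Tle4* was -0.36 on the same scale (adjusted p = 0.00387). Skeletal muscle markers were listed because *Pax3* and *Foxo* genes also act in muscle. Of 8 listed, 3 were tested, and *Des* (log2 fold change 2.14) and *Acta1* (1.77) were higher (66.7%, against 14.3% of all genes). *Chrna1*, also tested, did not pass (-0.21, adjusted p = 0.349). The 3 untested ones in the count table had 3 counts or fewer in every library of both genotypes. Smooth muscle or contractile fibroblasts can express *Des* and *Acta1*.

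Levels can be compared between genes after division by transcript length, here in CPM per kilobase of the longest GENCODE M21 transcript. On this scale *Sox4* was the most abundant member in WT, at 37.6, followed by *Foxk2* at 26.2, *Foxj3* at 14.98, *Foxp1* at 14.2, *Foxn2* at 12.4 and *Foxp4* at 11.8. In *Aff3ir-ORF2*-/- the level of *Sox4* was 24.9 and that of *Foxk2* 24.8 CPM per kilobase, so the pair stood level. *Foxo3* went from 4.96 to 9.62, *Sox9* from 4.85 to 2.43 and *Foxc1* from 0.863 to 3.26 CPM per kilobase. *Foxc2*, *Foxj2* and *Foxo4* stood near each other in *Aff3ir-ORF2*-/-, at 5.77, 5.69 and 5.76 CPM per kilobase. *Sox5*, *Sox6* and *Sox13* stayed between 0.437 and 0.838 CPM per kilobase in *Aff3ir-ORF2*-/-, under *Sox9*.

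**Figure D5:**
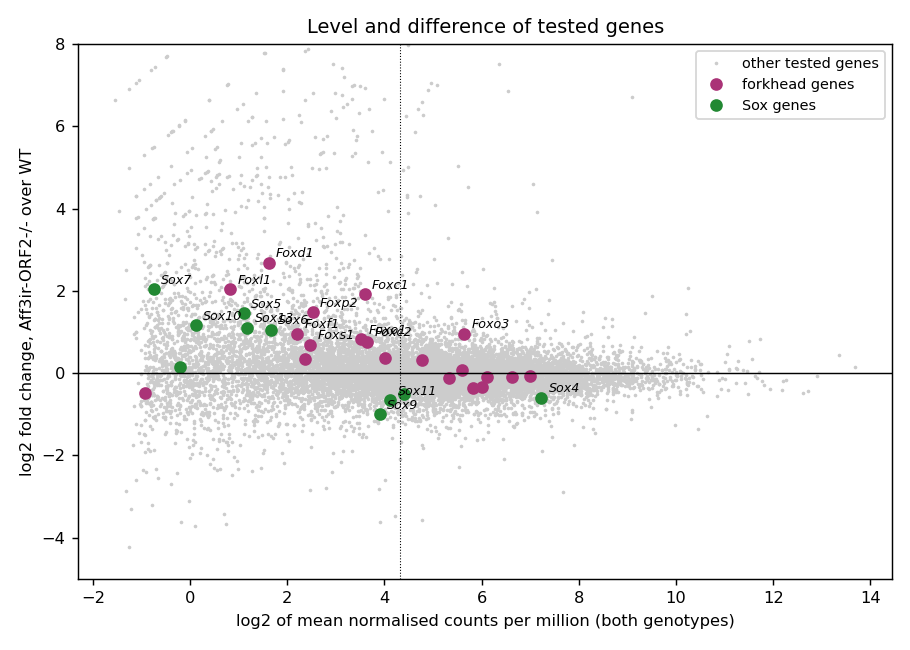
Log2 fold change (y axis, *Aff3ir-ORF2*-/- over WT) against the log2 of the mean CPM of both genotypes (x axis) for tested genes, with forkhead genes in purple, Sox genes in green and those past both thresholds named. The dotted vertical line is at 20 CPM, 11 genes lie outside the y axis, and the calls among forkhead genes other than *Foxo3* lie left of the line, where calls are more frequent among all genes too.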

How the data were processed

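RNA-seq reads were filtered with SOAPnuke and counted per gene by the authors, who deposited estimated counts, not normalized, for 6 libraries. The aligner and counting tool are not given in the sources used here, and the submitters' processing notes name the build mm8 without its role. The deposited estimated counts were rounded to whole numbers. All 6 count columns were matched by name. With edgeR 4.0.16 in R 4.3.3, genes were filtered (filterByExpr, minimum count 10, minimum total 15), scaled by TMM (factors 0.989 to 1.02) and tested by the quasi-likelihood test without covariates, adjusted by Benjamini-Hochberg over 13075 genes. The function was tested on simulated data. CPM are TMM-normalised. At most 3 counts in every library was taken as the floor, for counting error only. Alternatives used limma 3.58.1 (voom) and DESeq2 1.42.0. Gene IDs matched RefSeq (GRCm38.p6) for 50 of 50 members, and no coordinates of the count table are used. Members and lists were chosen with earlier results of these data known. Library values are given for members past both thresholds and the 10 most abundant ones, and up to 4 genes per list are named, first by adjusted p. A few further genes (*Irs1*, *Akt1*, *Akt2*, *Fbxo32*, *Bcl2l11*, *Trib1*, *Klf2*, *Cdon*, *Gli1*, *Shh*, *Acan*, *Dct*, *Pecam1*, *Rfx2*, *Tle4*, *C1qa*, *C1qb*) were named after their values were seen. Some genes are not reported here by name, and counts over a family or list include them.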

Additional observations from a re-analysis of the deposited data

How the results depend on the processing

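The number of forkhead genes called higher (10) stayed between 9 and 11 under other scalings, other filters, DESeq2, limma voom and when each library was left out in turn, and 0 were lower in each of these. Where it was 11, the added gene was *Foxa1*, with 0, 2 and 3 counts in WT, which the filter of the main fit left out. For Sox genes the leave-one-out ranges were 4 to 5 higher and 2 to 3 lower, and with at least 10 counts in every library 3 were higher, since *Sox7* and *Sox10* were then not tested. For all genes, leaving out a library gave 1791 to 1933 higher and 905 to 1034 lower. A 2-fold threshold gave 1102 higher and 318 lower for all genes, 5 forkhead genes higher, and 0 Sox genes lower. The adjusted p alone gave 3838 higher and 3606 lower, with 2 forkhead genes lower. DESeq2 called 11 forkhead genes higher and 4 Sox genes higher and 3 lower. *Sox2* ranged from -0.11, a reversal, without *Aff3ir-ORF2*-/- replicate 3 to 0.37 without replicate 2, and passed no test. Of the comparisons of single members with an alternative, 420 kept direction and side of the threshold on adjusted p, 5 fell short of it, all *Sox10*, and 4 newly passed. The median log2 fold change of all genes was at most 0.0433 under the other scalings, against 0.0056 in the main fit.

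With the replicate number as a replicate block, 10 forkhead genes were higher, 5 Sox genes higher and 3 lower, and 1870 of all genes higher and 975 lower. Same-numbered WT and *Aff3ir-ORF2*-/- libraries deviated together with correlations of 0.0386, 0.0424 and 0.0145, each the highest for its number. Correlations this low cannot decide whether same-numbered libraries were prepared together, and the main fit left them unpaired. Genes of a few counts, such as *Sox7*, *Sox10*, *Foxq1* and *Foxa1*, are limited by depth.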
